A study of Mus musculus with 6 samples.

Results

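The genes described here encode the lysosome and the machinery of autophagy and mitophagy in the mouse lens. Probes were taken when the platform annotation gave them 1 of 36 chosen gene symbols: 18 lysosomal enzymes and membrane proteins, 14 autophagy core genes and 4 mitophagy genes. Of the 36 genes, among 16593 named genes on the array, 35 had a probe and 26 were above background often enough to be tested. Npc1 was not analysed here. RNA came from whole lenses of 18-week-old C57BL/6J mice, 1 Illumina BeadChip array per mouse. The mutant group of 3 mice (2 labelled female, 1 male) was homozygous for Fgf9 Y162C, an amino acid substitution in the secreted growth factor FGF9, and the other 3 mice (1 female, 2 male) were wild type. The labels give no other allele or treatment in either group. The comparison asks whether these genes differ between lenses of the mutant and of the wild type. In whole-lens RNA, fewer cells of a type and less RNA per cell cannot be told apart.

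Lysosomes are acidic compartments in which hydrolases break down material delivered by endocytosis or autophagy. In autophagy a double membrane closes around cytoplasm or an organelle and then fuses with a lysosome, and mitophagy is the form that removes mitochondria. In the lens, fibre cells lose their nuclei, mitochondria and other organelles as they mature, while the epithelium at the front keeps them. Transcription factor TFEB activates many lysosomal and autophagy genes through a promoter element built on the letters CACGTG.

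The wild-type arrays detected 8713 to 9671 probes each, with a mean deposited signal of 191 to 200, and the homozygous arrays 7816 to 8396, with 162 to 166. The groups did not overlap in either, and the part of this in how many homozygous arrays detected a gene was not tested. Of 8 lens fibre markers with a probe, 7 were tested and Gja3 was not above background on any array, and of 7 lens epithelium markers 4 were tested and Pax6 and Npnt were not above background on any array. A principal component analysis set wild type replicate 2 apart from the other arrays, at 31.1 on a leading axis (43.2% of variance) where they lay between -17 and 7.89. The label of wild type replicate 3 gives a male, yet that array detected Xist, the X inactivation transcript, and not the Y-linked Eif2s3y. Results were therefore also computed without each array and without both of these.

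No lysosome, autophagy or mitophagy gene passed the test between homozygotes and wild type. Of the 26 tested, 0 passed at an adjusted p under 0.05 (limma, Benjamini-Hochberg over all probes), against 0.435% of all 6430 tested genes (0.109% higher and 0.327% lower in the homozygotes), so a count of 0 is close to that share. At an unadjusted limma p under 0.05 the count was also 0 of 26, against 9.14% of all tested genes. With 15 of the 26 log2 fold changes above 0 and 11 below, the median was 0.02, and over all tested genes it was 0. The values of the 26 genes lay between -0.45 and 0.32, and 14 of them were within 0.1 of 0. For all 26 genes the 95% interval of the fold change lay within 2-fold in either direction, and for 22 it lay within 1.5-fold, that is, within 0.58 on the log2 scale. Among all tested genes the intervals of 94.8% and 58.9% did so. Ctsh, Glb1, Npc2 and Becn1 were the genes whose intervals reached beyond 1.5-fold. The residual SD between mice of a group had a median of 0.21 for the 26 genes and 0.22 for all tested genes. When wild type replicate 2 or 3 was left out, the adjusted count stayed at 0. The count at an unadjusted limma p under 0.05 became 1 (Ctsh) and 1 (Gabarapl1). It was 2 (Glb1 and Npc2) without wild type replicate 1, and 0 when a homozygous array was left out. The share of all genes under that p is not given for these settings, so the counts are not read as results. With wild type replicates 2 and 3 both left out, 1 wild-type array remained, so no count is given for that fit. There 25 of the genes were tested, with a median log2 fold change of 0.06. The values ran from -0.41 for Ctsh to 0.61 for Pink1, a wider range than with all arrays.

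**Figure D1:**
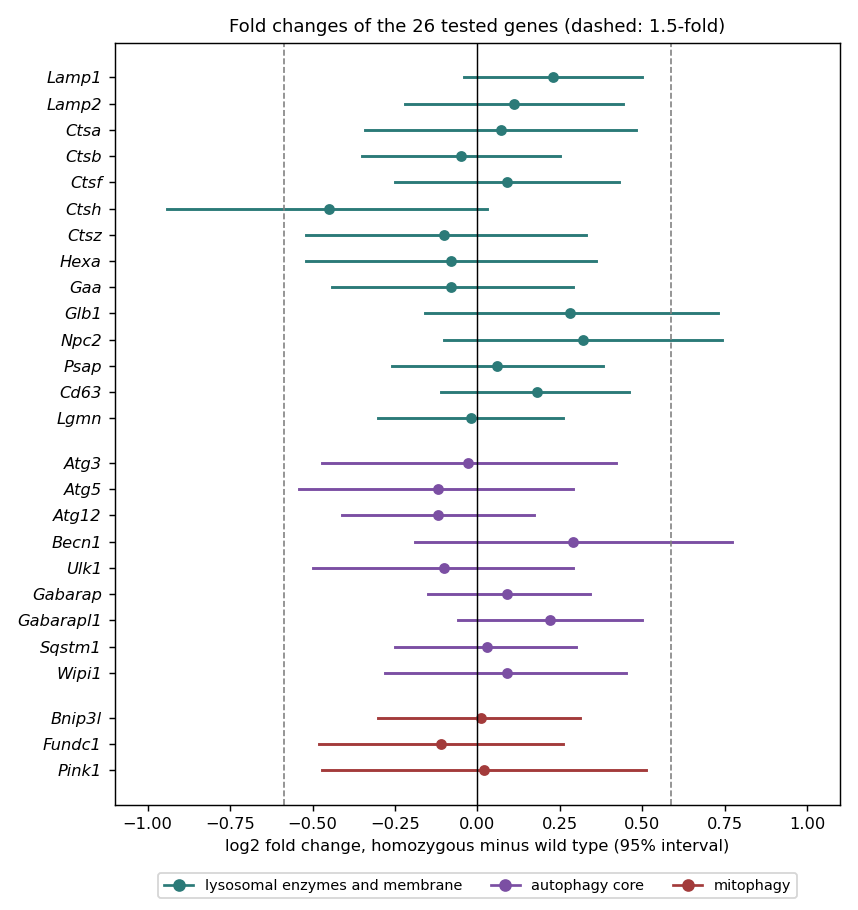
Log2 fold change (x axis, homozygous minus wild type, points) with its 95% interval (bars) for each of the 26 tested genes, coloured by role. Every interval includes 0, and 4 intervals cross the dashed 1.5-fold lines.

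Among lysosomal membrane proteins, Lamp1 was the only tested gene of the 26 whose groups did not overlap, a pattern seen in 15.1% of all tested genes (7.42% higher and 7.64% lower in the homozygotes). LAMP1 is a heavily glycosylated protein that lines the lysosomal membrane. Its normalized log2 signal was 8.83, 9 and 9.03 in the wild type and 9.28, 9.21 and 9.05 in the homozygotes. All homozygous values were above the wild-type ones, but the nearest pair differed by less than the SD of 0.11 in each group. At 0.23, the log2 fold change (SE 0.12, limma adjusted p = 0.621) had a 95% interval from 0.97-fold to 1.41-fold. Lamp2, which encodes the related LAMP2 and by splicing also the receptor of chaperone-mediated autophagy, had a log2 fold change of 0.11 at its brightest probe, with overlapping groups.

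The Lamp1 promoter is shown because it holds several copies of the letters to which TFEB and its relatives bind, the Atg3 promoter because it holds the longer form of that motif, and the Cd63 promoter because it has no match although Cd63 had the probe with the smallest p. Each runs from 250 bases before to 50 after the start of the gene, 5′ to 3′ on the gene's strand, from RefSeq on GRCm38.p6. Capitals mark CACGTG, which reads the same on both strands.
Lamp1, chr8:13158911-13159210, plus strand: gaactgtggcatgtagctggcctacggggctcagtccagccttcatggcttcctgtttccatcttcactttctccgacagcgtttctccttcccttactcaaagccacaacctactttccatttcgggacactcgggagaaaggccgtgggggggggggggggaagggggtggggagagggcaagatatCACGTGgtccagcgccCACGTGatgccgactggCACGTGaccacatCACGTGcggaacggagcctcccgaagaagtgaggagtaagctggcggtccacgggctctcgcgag
Atg3, chr16:45158579-45158878, plus strand: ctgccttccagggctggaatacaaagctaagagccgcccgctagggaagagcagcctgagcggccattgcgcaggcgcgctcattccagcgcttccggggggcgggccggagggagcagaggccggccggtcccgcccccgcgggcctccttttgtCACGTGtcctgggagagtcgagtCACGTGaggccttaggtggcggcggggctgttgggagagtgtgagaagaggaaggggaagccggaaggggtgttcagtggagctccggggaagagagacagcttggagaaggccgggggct
Cd63, chr10:128909095-128909394, plus strand: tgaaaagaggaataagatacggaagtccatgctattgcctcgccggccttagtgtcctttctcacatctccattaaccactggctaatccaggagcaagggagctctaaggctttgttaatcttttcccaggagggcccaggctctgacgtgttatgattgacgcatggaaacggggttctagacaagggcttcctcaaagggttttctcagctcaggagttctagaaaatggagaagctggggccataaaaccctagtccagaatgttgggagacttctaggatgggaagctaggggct

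The table of promoters held 29 of the 36 genes. CACGTG was found in a promoter of 12 of these 29 genes (41.4%), against 8.09% of the 27025 genes in the table. Lamp1 held 4 copies, between bases 190 and 241 of the window. The longer TCACGTGA, which contains CACGTG, was found for Ctsa, Ctsd and Atg3, 3 of 29 genes, against 1.12% of all genes. The full CLEAR element, which contains both, was found in 0 of the 29 and in 0.37% of all genes. These matches are descriptions of the sequence and not binding sites. The 8 tested genes with CACGTG had a median log2 fold change of 0.03, between -0.12 for Atg5 and 0.28 for Glb1, and the 13 without it had a median of 0.06, between -0.11 and 0.32. Over all tested genes in the table the medians were -0.01 with the motif and 0 without it, so carriers and other genes lay at nearly the same place.

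Cd63, a tetraspanin of late endosomes and lysosomes, was measured by 3 probes that did not give the same size of difference. The brightest probe, which represents the gene, read 9.16, 9.24 and 9.21 in the wild type and 9.27, 9.63 and 9.23 in the homozygotes. These groups overlapped, and the log2 fold change was 0.18 (SE 0.13, limma adjusted p = 0.719). The second probe read 8.03, 7.92 and 8.23 in the wild type and 8.97, 8.67 and 8.46 in the homozygotes. Here all homozygous values were higher, with a log2 fold change of 0.64 (SE 0.16, limma adjusted p = 0.159), which did not pass. It was the only 1 of the 40 tested probes of these genes with an unadjusted p under 0.05, against 8.93% of all tested probes. The third probe had a log2 fold change of 0.32 (SE 0.25) with overlapping groups. The second probe kept a log2 fold change of 0.51 to 0.76 in the 15 alternatives that keep probes apart. Its lowest limma adjusted p was 0.0551, with replicate number added to the fit (the replicate block). The next lowest was 0.106, without wild type replicate 1, and the highest was 0.62, without homozygous replicate 1. With the mean of the gene's probes, Cd63 stood at 0.38 (limma adjusted p = 0.482).

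Npc2, the soluble protein that hands cholesterol to NPC1 for export from the lysosome, read 5.63, 5.19 and 5.33 in the wild type and 5.61, 5.6 and 5.90 in the homozygotes. The highest wild-type value lay among the homozygous ones. The log2 fold change was 0.32 (SE 0.19, limma adjusted p = 0.652). Psap, the precursor of the saposins that help hydrolases act on sphingolipids, read 10.02 to 10.62 in the wild type and 10.33 to 10.52 in the homozygotes. Its groups overlapped fully, with a log2 fold change of 0.06.

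Among the hydrolases, the cysteine protease gene Ctsh had the log2 fold change furthest from 0. Its values were 5.46, 4.99 and 5.90 in the wild type and 5.00, 4.98 and 5.01 in the homozygotes. The homozygotes sat together at the level of wild type replicate 2, near the detection limit (detection p up to 0.0326), while the other wild-type lenses were higher. At -0.45, the log2 fold change (SE 0.22, limma adjusted p = 0.586) had an interval that ran from 0.523-fold to 1.02-fold. Leaving out wild type replicate 2 gave -0.65 (limma adjusted p = 0.374), and leaving out wild type replicate 3 gave -0.22. With all arrays, an offset of 50 gave -0.25 and no background correction gave -0.17. Over 5 tested macrophage and leukocyte markers, the summed normalized signal of the wild-type arrays came to 265, 195 and 285, and that of the homozygous arrays to 135 to 160. Every gene adds the offset and remaining background to such a sum, so its ratio between groups is not a fold change of the markers. Of these 5, only Laptm5 passed, with a log2 fold change of -1.25 (SE 0.19, limma adjusted p = 0.0113). It was above background on 0 homozygous arrays, so the size of its difference is not exact. Of the 5 markers, 4 had log2 fold changes below 0, and Aif1 stood at 0.16 with higher homozygous values and no overlap. Without their wild-type arrays none of those 4, Laptm5 included, would have met the detection filter, which favours lower homozygous values. Ctsh and this sum were both lowest among wild-type lenses in replicate 2. Of the 12 markers with a probe, C1qa, Ptprc, Tyrobp and Cx3cr1 were not above background on any array. The part of these cells in the Ctsh values was not tested.

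Glb1, the lysosomal beta-galactosidase, read 6.95, 6.16 and 6.52 in the wild type and 6.73, 6.81 and 6.95 in the homozygotes. Wild type replicate 1 was as high as the highest homozygote, and the wild-type range was wider. The log2 fold change was 0.28 (SE 0.20, limma adjusted p = 0.707), and it moved to 0.48 when wild type replicate 1 was left out, to 0.09 when replicate 2 was, and to -0.12 when wild type replicates 2 and 3 both were. Ctsz, a carboxypeptidase of the cathepsin family, read 6.21, 6.62 and 6.35 in the wild type and 6.24, 6.58 and 6.08 in the homozygotes. The groups overlapped, with a log2 fold change of -0.10, and a dimmer probe stood at 0.39, neither passing.

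The other tested hydrolases lay close to 0. Ctsb, the main endopeptidase cathepsin in many tissues, read 9.16 to 9.60 in the wild type and 9.21 to 9.45 in the homozygotes. Lgmn, the asparaginyl endopeptidase that processes other cathepsins, read 8.75 to 8.82 in the wild type and 8.58 to 8.89 in the homozygotes. For both the homozygous values straddled the wild-type mean, and the intervals were 0.782-fold to 1.19-fold for Ctsb and 0.81-fold to 1.20-fold for Lgmn. Ctsf, another cysteine cathepsin, had a log2 fold change of 0.09. Ctsa, the carboxypeptidase that protects beta-galactosidase, had one of 0.07 and was tested on 1 of its 4 probes. That Ctsa probe was near the detection limit too, with a detection p up to 0.0489. Hexa, the alpha subunit of beta-hexosaminidase, and Gaa, the glucosidase that digests lysosomal glycogen, each stood at -0.08. Gaa was near the detection limit, above background on 3 wild-type arrays and 1 homozygous array. The 14 tested lysosomal genes together had a median of 0.07, with 8 above 0 and 6 below.

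**Figure D2:**
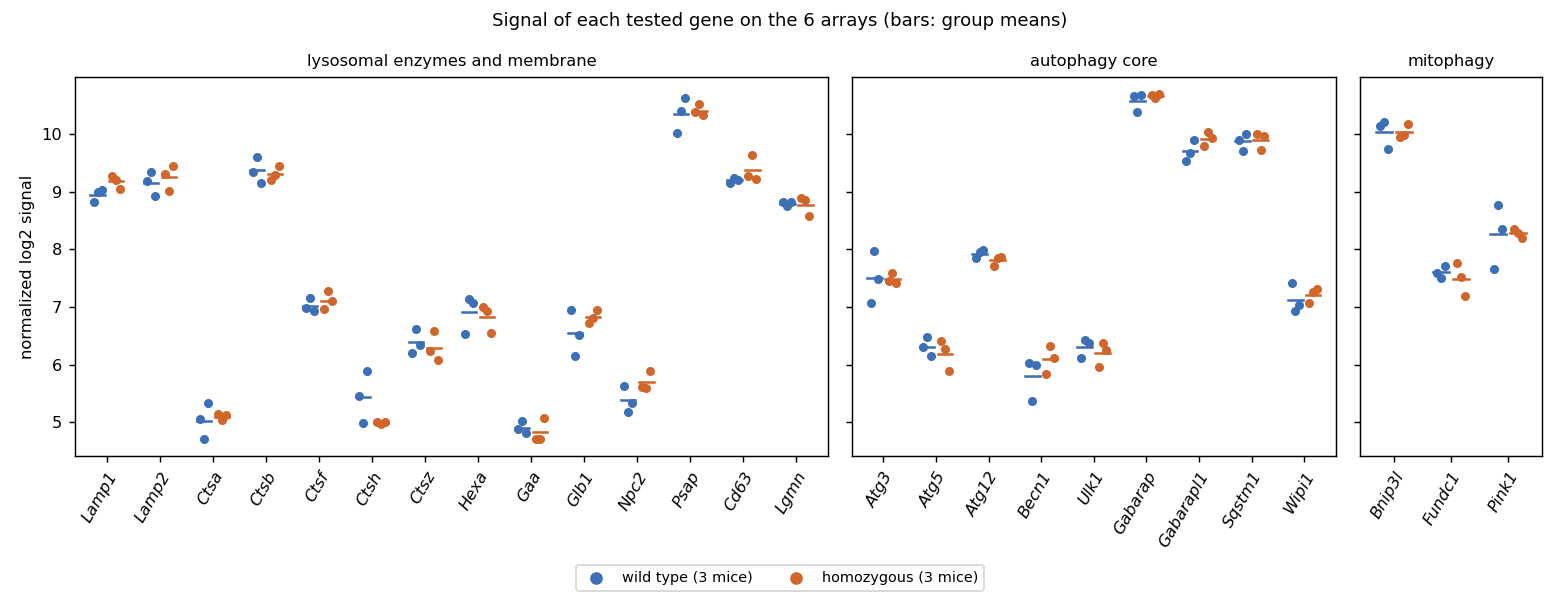
Normalized log2 signal (y axis) of each tested gene on the 3 wild-type and the 3 homozygous arrays, with group means as bars, in panels by role. The groups overlap for every gene other than Lamp1, and heights should not be compared between genes, since each has its own probe.

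Autophagy core genes were split around 0, 5 above and 4 below, with a median of 0.03. The kinase ULK1 starts autophagosome formation, and Ulk1 read 6.12, 6.43 and 6.37 in the wild type and 5.97, 6.38 and 6.25 in the homozygotes. The log2 fold change was -0.10 (SE 0.18), with overlapping groups. Becn1 encodes beclin 1, a subunit of the lipid kinase complex that marks the growing membrane, and read 6.03, 5.38 and 6.00 in the wild type and 5.84, 6.32 and 6.12 in the homozygotes. Wild type replicate 2 was the lowest array, and the log2 fold change of 0.29 (SE 0.22, limma adjusted p = 0.719) became 0.08 when it was left out. Its interval of 0.876-fold to 1.71-fold was the widest of the autophagy genes on the upper side. Wipi1, which binds the phosphoinositide made by that complex, read 6.93 to 7.42 in the wild type and 7.08 to 7.31 in the homozygotes, a log2 fold change of 0.09.

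The conjugation enzymes attach ATG12 to ATG5 and lipidate the LC3 and GABARAP proteins. Atg12 read 7.85, 7.95 and 7.99 in the wild type and 7.71, 7.86 and 7.87 in the homozygotes. Its groups overlapped narrowly, and the log2 fold change was -0.12 (SE 0.13, limma adjusted p = 0.823). Atg5 read 6.31, 6.48 and 6.16 in the wild type and 6.41, 6.27 and 5.90 in the homozygotes at its brighter probe, a log2 fold change of -0.12. Its other tested probe stood at -0.20 (limma adjusted p = 0.758) with no overlap of the groups. Atg3, the enzyme that transfers LC3 to lipid, had a log2 fold change of -0.03, and its wild-type values ran from 7.07 to 7.97 while the homozygous ones stayed within 7.41 to 7.59.

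Among the ubiquitin-like proteins that coat the autophagosome, Gabarapl1 read 9.53, 9.68 and 9.90 in the wild type and 9.80, 10.04 and 9.93 in the homozygotes. A single homozygous value lay below the highest wild-type one, and the log2 fold change was 0.22 (SE 0.13, limma adjusted p = 0.643). Gabarap read 10.38 to 10.68 in the wild type and 10.63 to 10.69 in the homozygotes. Its log2 fold change was 0.09 with an interval from 0.899-fold to 1.26-fold. Sqstm1, which encodes the cargo receptor p62 that links ubiquitin to LC3, read 9.71 to 10.01 in the wild type and 9.72 to 10.01 in the homozygotes. These ranges nearly coincided, with a log2 fold change of 0.03.

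Of the mitophagy receptors, Bnip3l encodes NIX, an outer mitochondrial membrane protein known for organelle clearance in maturing red cells and lens fibres. Its log2 signal was 10.14, 10.21 and 9.74 in the wild type and 9.95, 9.99 and 10.17 in the homozygotes. The ranges overlapped almost fully, with a log2 fold change of 0.01 (SE 0.14, limma adjusted p = 0.993) and an interval from 0.815-fold to 1.24-fold. Fundc1, a receptor that binds LC3 in low oxygen, read 7.59, 7.51 and 7.72 in the wild type and 7.77, 7.52 and 7.19 in the homozygotes. Homozygous replicate 3 was the lowest array and homozygous replicate 1 the highest, and the log2 fold change was -0.11 (SE 0.17). Pink1 encodes the kinase that accumulates on damaged mitochondria and recruits parkin. It read 7.67, 8.77 and 8.35 in the wild type but 8.36, 8.29 and 8.2 in the homozygotes. The wild-type mice spread over a range of log2 signal that enclosed all homozygous values, and the log2 fold change of 0.02 (SE 0.22) became -0.27 when wild type replicate 1 was dropped, 0.27 when replicate 2 was, and 0.61 (limma adjusted p = 0.204) when wild type replicates 2 and 3 were both left out.

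Of the 26 genes, 10 had more than 1 tested probe. For Lamp2, Ctsz, Atg3 and Ulk1 the probes lay on both sides of 0, and for Cd63, Atg5, Becn1, Wipi1, Fundc1 and Pink1 they lay on 1 side. Lamp2 had 4 probes, at 0.11, -0.01, -0.13 and -0.36. The last of these read 8.05, 8.81 and 8.27 in the wild type and 7.98, 8.08 and 7.99 in the homozygotes, with wild type replicate 2 highest (limma adjusted p = 0.596). Apart from the second Cd63 probe, every 95% interval in this set included 0.

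**Figure D3:**
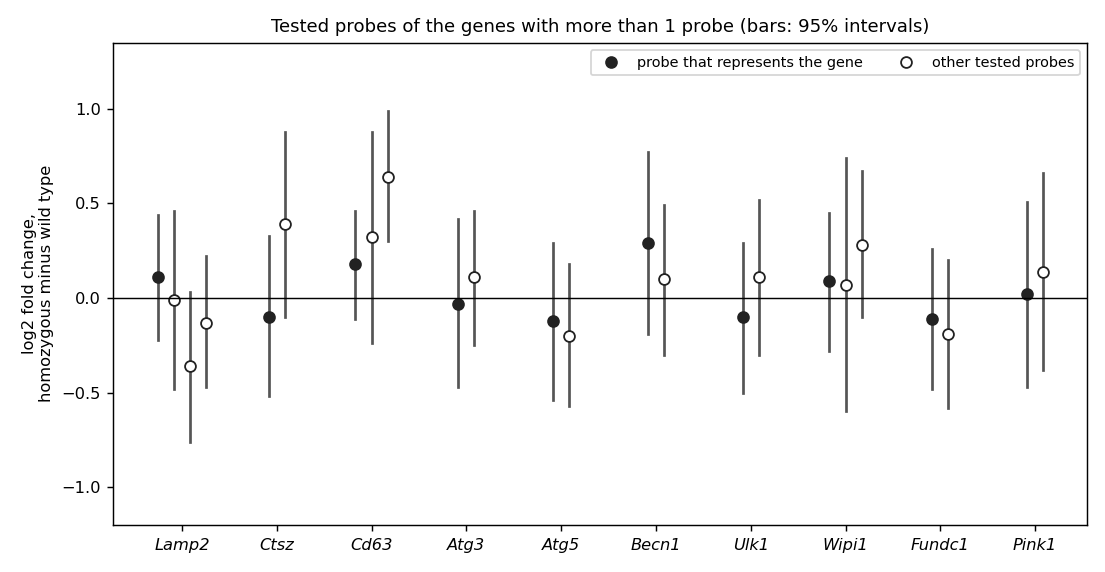
Log2 fold change (y axis, homozygous minus wild type) with 95% interval for each tested probe of the 10 genes that had several; filled points represent the gene. The Cd63 probe at 0.64 is the only one whose interval lies above 0.

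The 9 genes with a probe that was not tested were Ctsd, Ctsl, Scarb2, Atg7, Map1lc3a, Map1lc3b, Gabarapl2, Tfeb and Bnip3. They include the aspartic protease cathepsin D, the carrier of lysosomal glucocerebrosidase, the enzyme that activates LC3 for lipidation, LC3 itself and the transcription factor TFEB. Ctsl was above background on 1 array of each group, Ctsd on 1 homozygous array, and Scarb2, Atg7 and Map1lc3b on 1 wild-type array. Each of the 2 Map1lc3a probes was above background on 1 wild-type array, and the probes of Gabarapl2, Tfeb and Bnip3 on 0 of 6. The deposited signals were 81.9 to 95.3 for Ctsd, 81 to 104 for Map1lc3b and 79.2 to 90.3 for Bnip3, and a median probe read 83.7 to 91.7. Such values do not show that the transcripts were missing from the lens, and no fold change is given.

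The wider pathway was read from 8 further lists with 132 tested genes, of which 0 passed (limma adjusted p under 0.05), against 0.435% of all genes. At an unadjusted limma p under 0.05 there were 7 of 132 (5.30%), below the 9.14% of all genes, and the median log2 fold change was -0.02. Groups did not overlap for 14 of the 132 (5 higher and 9 lower in the homozygotes), against 15.1% of all tested genes. A lack of overlap in the genes named below is therefore not read as a result.

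Other lysosomal hydrolases had a median of 0.07 over 19 tested genes, 12 above 0 and 7 below. Dnase2b, the acidic nuclease that digests the DNA of fibre cells, read 8.96, 8.48 and 8.52 in the wild type and 9.24, 9.12 and 9.22 in the homozygotes. All homozygous values were higher, with a log2 fold change of 0.54 (SE 0.15, limma adjusted p = 0.237), but its dimmer probes stood at -0.20 and -0.27. Without wild type replicate 1 this gene passed. Ctsc, a dipeptidyl peptidase, read 5.64, 5.54 and 5.03 in the wild type and 4.75, 4.55 and 4.94 in the homozygotes. It had a log2 fold change of -0.66 (SE 0.20, limma adjusted p = 0.316) and was above background on 1 homozygous array. Other lysosomal membrane and transport genes had a median of 0.02 over 19 tested genes, with -0.39 for the tetraspanin Cd82 and 0.26 for the tetraspanin Cd81, neither passing.

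The proton pump, or V-ATPase, which acidifies the lysosome, had 17 tested subunits with a median of -0.07. Atp6v1g2, the form of the G subunit found mainly in neurons, read 5.24, 6.32 and 5.22 in the wild type and 4.44, 4.72 and 4.83 in the homozygotes. It was above background on 0 homozygous arrays, and its log2 fold change was -0.93 (SE 0.27, limma adjusted p = 0.281). Its wild-type mean was 1.68-fold above a floor for the homozygotes. That floor takes, on each homozygous array, the lowest signal of any detected probe or the probe's own if higher. The ratio leaves out the spread of the wild-type values, of which replicate 2 was highest. Atp6v1g1, the form of the same subunit found in all tissues, had a log2 fold change of 0.30 (SE 0.15), and Atp6v0a1 of -0.41 (SE 0.20), neither passing. Over 5 tested markers of inner retina and glia, the summed signal of the wild-type arrays came to 373, 615 and 459 and that of the homozygous arrays to 125 to 150. These sums too include the offset and remaining background of every gene. Each of the 5 was above background on at most 1 homozygous array, and Glul and Nefl on 0 arrays. Like Atp6v1g2, the 5 therefore met the detection filter only through their wild-type arrays. That filter favours lower homozygous values, so their shared direction is not a separate result. Calb2, Slc1a3, Sncg and Slc17a6 passed as lower in the homozygotes (limma adjusted p from 0.00102 to 0.0386). Other probes of Calb2 and Sncg stood at -0.32 and -0.05, neither passing. Atp6v1g2 and these markers were both highest in wild type replicate 2, and the part of such cells in the Atp6v1g2 values was not tested.

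For sorting, docking and fusion with the lysosome, 20 tested genes had a median of -0.06. Vps18, a core subunit of the tethering complexes that bring membranes to the lysosome, had a log2 fold change of -0.68 (SE 0.19, limma adjusted p = 0.262) and was above background on 1 homozygous array, while Vps41, a subunit of the same machinery, stood at 0.36. For nutrient sensing at the lysosome, 17 tested genes had a median of -0.01. Flcn, which encodes folliculin and helps keep TFEB out of the nucleus, read 6.89, 7.26 and 6.87 in the wild type and 6.52, 6.56 and 6.47 in the homozygotes, with no overlap and a log2 fold change of -0.49 (SE 0.17, limma adjusted p = 0.379). Rheb, the activator of mTORC1, stood at -0.25.

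Other autophagosome formation genes had a median of -0.14 over 14 tested genes, with 3 above 0 and 11 below. As a list, their mean deviation from the mean of all arrays was -0.10, 0.20 and 0.05 in the wild type. In the homozygotes it was -0.12, 0.09 and -0.13, so the groups overlapped, with wild type replicate 2 highest. Both named members bind phosphoinositides like WIPI1. Wdr45 had a log2 fold change of -0.40 (SE 0.18, limma adjusted p = 0.564) and Wipi2 of -0.34 (SE 0.18, limma adjusted p = 0.606), each with groups that did not overlap, while another Wipi2 probe stood at -0.17. Other cargo receptors had a median of 0.10 over 8 tested genes, with 0.46 for Nbr1, a relative of p62 that was above background on 1 wild-type and 3 homozygous arrays, and -0.49 for Tax1bp1. Other mitophagy and mitochondrial quality control genes had a median of -0.02 over 18 tested genes. Tomm22, a receptor of the mitochondrial import channel, read 7.09, 7.34 and 7.17 in the wild type and 6.74, 6.88 and 6.63 in the homozygotes, a log2 fold change of -0.45 (SE 0.16, limma adjusted p = 0.399) with no overlap, and Rhot1, which ties mitochondria to motors, stood at -0.47.

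**Figure D4:**
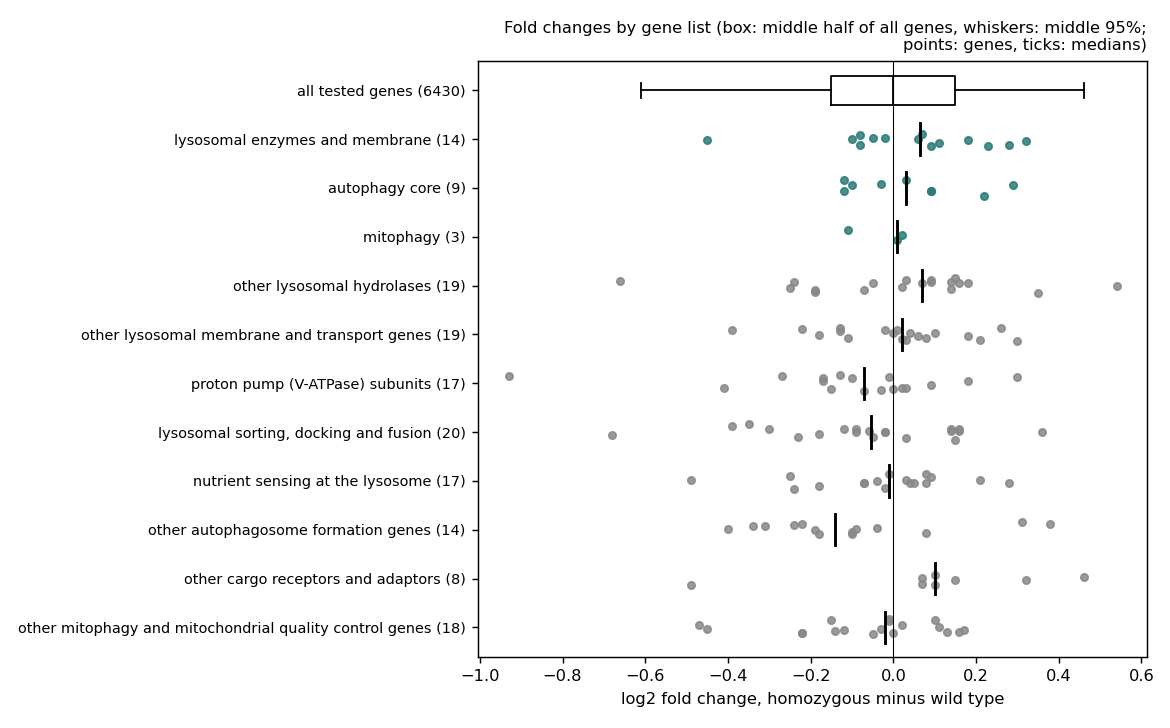
Log2 fold change (x axis, homozygous minus wild type) of each tested gene in the 3 gene groups and the 8 neighbouring lists, beside all 6430 tested genes. The group medians lie between -0.14 and 0.10, and 0 of the genes plotted as points passed the test.

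As means over each list, markers of other eye cells varied more from array to array than the gene groups did. Genes that move in unlike directions cancel in such a mean, so it does not give the spread of single genes. The mean deviation from the 6-array mean stayed between -0.05 and 0.05 on the 6 arrays for the lysosomal genes, between -0.05 and 0.08 for autophagy core genes and between -0.15 and 0.21 for the 3 mitophagy genes. The highest mitophagy value was that of wild type replicate 2, where photoreceptor markers were also highest. For macrophage and leukocyte markers the deviation was 0.06 to 0.54 on wild-type and -0.46 to -0.24 on homozygous arrays, and for inner retina and glia markers it was 0.46 to 1.27 and -0.94 to -0.71. Other than Aif1, all tested markers of these lists met the detection filter only through their wild-type arrays, which favours this direction. Photoreceptor markers reached 1.65 on wild type replicate 2 and lay between -0.82 and 0.10 on the other arrays. The single tested blood marker, Hba-a1, left out of the plot, ranged from -2.24 to 1.67. The part of these cells in the values of the gene groups was not tested.

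**Figure D5:**
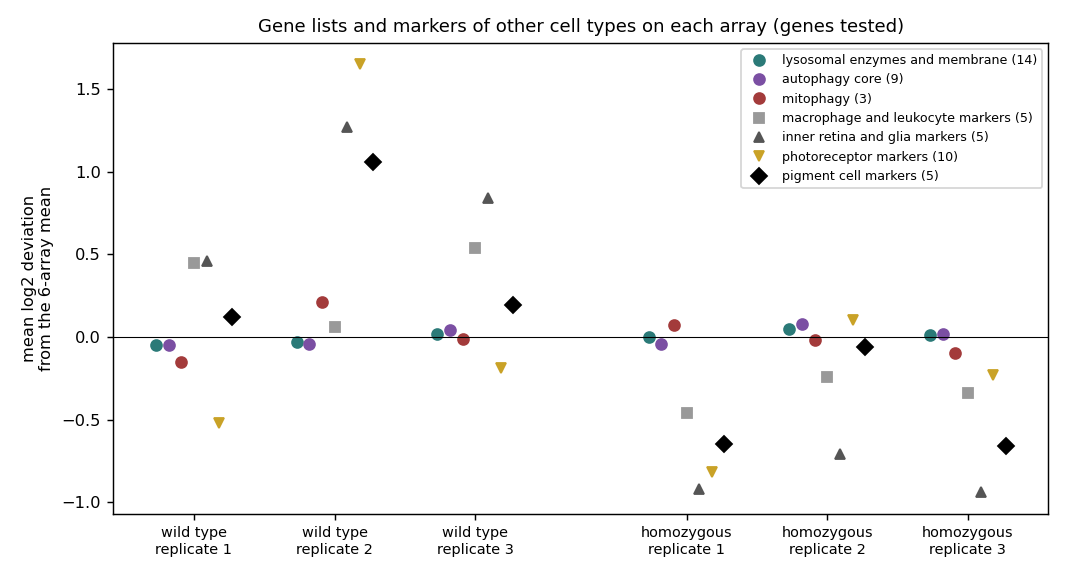
Mean log2 deviation from the 6-array mean (y axis) of the 3 gene groups (circles) and of markers of other cell types (other symbols) on each of the 6 arrays (x axis), with the number of genes tested in brackets. The gene groups stay between -0.15 and 0.21, while the 4 marker lists plotted range from -0.94 to 1.65.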

How the data were processed

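Lens RNA of 6 mice was hybridised to 6 arrays. The authors' deposited signal table holds a linear intensity for each of 25697 probes, not background-subtracted and not normalized, with a detection p-value beside each signal. Per the submitters' processing notes, GenomeStudio 2011.1 was used. The authors' deposited processed intensities, background-subtracted and normalized by a method not given in the sources used here, served as an alternative.

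Signals were corrected by normexp with an offset of 16 (limma 3.58.1, R 4.3.3), quantile normalized and put on the log2 scale, which hides a shift shared by most genes and shrinks the fold changes of dim probes. Of the probes, 23978 had 1 symbol in the platform annotation, 0 had several and 1719 had none, and all 35 member symbols with a probe matched RefSeq. The 8618 probes with a detection p under 0.05 on at least 3 arrays were fitted with lmFit and eBayes with an intensity trend, genotype as the only term, two-sided, adjusted over all probes. A gene is represented by its tested probe of highest mean. The number of arrays limits the precision. The code was tested on simulated data.

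The members and lists were chosen with earlier results of these data known. All members are named. Values for every array are given for up to 6 genes a direction with the smallest p, and for others chosen after their values were seen. In each further list up to 4 passing genes, or else the 2 of smallest p, are named, and Atp6v1g1 was added after its value was seen. Neither file names slides, so the planned slide block was not run. Alternatives are in the closing section.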

Additional observations from a re-analysis of the deposited data

How the results depend on the processing

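The count of lysosome, autophagy and mitophagy genes that passed was 0 in all 16 alternatives, and their lowest adjusted p in any of them was 0.204, for Pink1 (0.61) without wild type replicates 2 and 3, an alternative added after the data were seen that assumes the lone wild-type array varies like the others. Of 415 fold changes recomputed for single genes, 42 changed sign without passing, and 401 moved by less than the gene's residual SD.

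The number of genes that passed over the whole array was 28. It was 18 with an offset of 50, 17 with no background correction, 16 with no intensity trend and 18 with the mean of a gene's probes. With sex as a covariate it was 17, where sex was taken from the labels, so that wild type replicate 3 counted as male. When 1 array was left out it was 9 to 72. It was 9 without homozygous replicate 2 or 3, 12 without homozygous replicate 1, and 13 and 72 without wild type replicates 3 and 1. With the replicate block it was 102, and 1 neighbouring gene, Atp6v1g2, passed. Deviations from the group mean correlated at 0.20, 0.19 and -0.03 between samples of the same number. Between samples of different numbers they correlated at -0.21 to 0.04. With 3 mice a group, these correlations cannot settle whether the numbers pair the mice. Leaving out 1 array gave 0 to 1 neighbouring genes, Dnase2b without wild type replicate 1.

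With median scaling the median fold change of the lysosomal genes was 0.02, of autophagy core genes -0.08 and of mitophagy genes -0.09, where that of all genes was 0.03. Leaving out 1 array gave 0.01 to 0.07 for the lysosomal and -0.12 to 0.09 for the mitophagy genes. The cause of these shifts was not tested. Signal near background limits Ctsa, Gaa, Ctsh and the 9 untested genes.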
